A study of Mus musculus with 6 samples.

Results

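The DNA replication machinery was followed through 46 genes, chosen by name because their products license origins, unwind DNA, copy it, process the fragments of the lagging strand or rebuild chromatin behind the fork. All 46 had a row among the 27480 genes of the table, and all 46 passed the filter on low counts. The cells were OT1 CD8+ T cells, cytotoxic lymphocytes of the mouse whose transgenic receptor sees a peptide of ovalbumin (OVA). Bulk poly(A) RNA was sequenced from 3 libraries of cells with a PTMA overexpression construct and 3 libraries of cells with the overexpression vector, named here PTMA 1 to 3 and vector 1 to 3. Both groups carry the genotype label WT, and both received OVA peptide for 48 h, so an unstimulated state was not analysed here. The labels give neither the animals' age, nor the promoter or species of the construct, nor the source of each replicate. If replicates share a culture, the p-values cover technical spread alone. PTMA (prothymosin alpha) is a small acidic nuclear protein and the series title concerns its part in mitochondrial integrity and in how long such T cells last.

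Replication starts in G1, when the origin recognition complex, Cdc6 and Cdt1 load the ring of Mcm2 to Mcm7 onto DNA. In S phase Cdc45 and GINS join that ring to form the active CMG helicase, polymerase epsilon extends the leading strand, polymerase alpha-primase lays down primers and polymerase delta extends the lagging strand on the PCNA clamp. Activated CD8+ T cells divide fast, and the E2F transcription factors are known to drive many of these genes as cells enter S phase. In bulk RNA, a larger share of cells in S phase and more RNA of these genes per cell cannot be told apart.

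Total counts ran from 54989408 to 66767589 per library, and single members had 649 to 69746 counts in a library. CPM below are counts scaled to library size with TMM factors, and FPKM are the deposited values per length of gene model, the only scale on which levels of different genes are compared. Ptma itself stood at 1152, 1346 and 1272 CPM in PTMA 1 to 3, against 848, 783 and 1146 CPM in vector 1 to 3, so its groups did not overlap, with vector 3 just under PTMA 1. Its log2 fold change of 0.44 (SE 0.13) missed the threshold (adjusted p = 0.951, edgeR). All 8 T cell markers were well expressed in every library, with means from 158 FPKM for Cd8a to 476 FPKM for Lck, while Cd4 averaged 0.169 FPKM.

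The promoters of these genes show one feature that the choice of members did not use. RefSeq promoter windows (GRCm38.p6, 250 bases before to 50 bases after the start site) were found for 37 of the 46 genes, and they were searched on both strands for the E2F motif in its forms TTTCCCGC, TTTGGCGC, TTTCGCGC and TTTGCCGC, where matches may overlap. A match lay in at least 1 window of 15 of the 37 genes (40.5%), against 704 of all 27025 genes in the table (2.60%). The background was not matched for base composition. TTTCCCGC was found in 8 members, TTTCGCGC and TTTGGCGC in 6 each and TTTGCCGC in 0. The letters CCAAT, the core of the site bound by NF-Y, were found in 22 of the 37 genes (59.5%), against 41.1% of all genes. The 15 genes were Orc1, Cdc6 and Cdt1 of licensing, Mcm3, Mcm5, Mcm6 and Mcm7 of the helicase, Gins3, Pola1, Pold1, Pold3, Pole2, Pole4, Rfc3 and Lig1. In 9 of them a match lay wholly before the start site, and stretches of 7 of these are shown to let a reader see the motif in its place, with the matched bases in capitals, read 5′ to 3′ on the strand of the gene:
Orc1 (chr4:108579403-108579453, plus strand): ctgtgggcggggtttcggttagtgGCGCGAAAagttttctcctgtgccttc
Cdc6 (chr11:98907989-98908044, plus strand): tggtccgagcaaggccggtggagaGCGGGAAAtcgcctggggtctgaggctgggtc
Mcm5 (chr8:75109332-75109391, plus strand): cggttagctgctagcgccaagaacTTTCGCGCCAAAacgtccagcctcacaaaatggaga
Mcm6 (chr1:128359721-128359839, minus strand): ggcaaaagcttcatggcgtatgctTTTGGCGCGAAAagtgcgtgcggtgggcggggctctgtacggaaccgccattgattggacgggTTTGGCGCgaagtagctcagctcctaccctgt
Mcm7 (chr5:138172017-138172072, minus strand): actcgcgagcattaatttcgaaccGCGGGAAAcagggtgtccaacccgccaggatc
Gins3 (chr8:95633494-95633549, plus strand): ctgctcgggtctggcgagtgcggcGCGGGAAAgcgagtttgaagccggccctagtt
Pola1 (chrX:93632262-93632317, minus strand): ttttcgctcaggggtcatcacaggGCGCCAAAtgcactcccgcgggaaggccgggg

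In Mcm5 and Mcm6 a match on each strand overlapped in 1 run of capitals, and Mcm6 held 3 matches in all. A match describes these letters and no more. The median log2 fold change between PTMA and vector libraries was 0.14 for the 15 genes with a match and 0.14 for the 22 without, and the value was above 0 for 13 of the 15 and 22 of the 22.

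**Figure D1:**
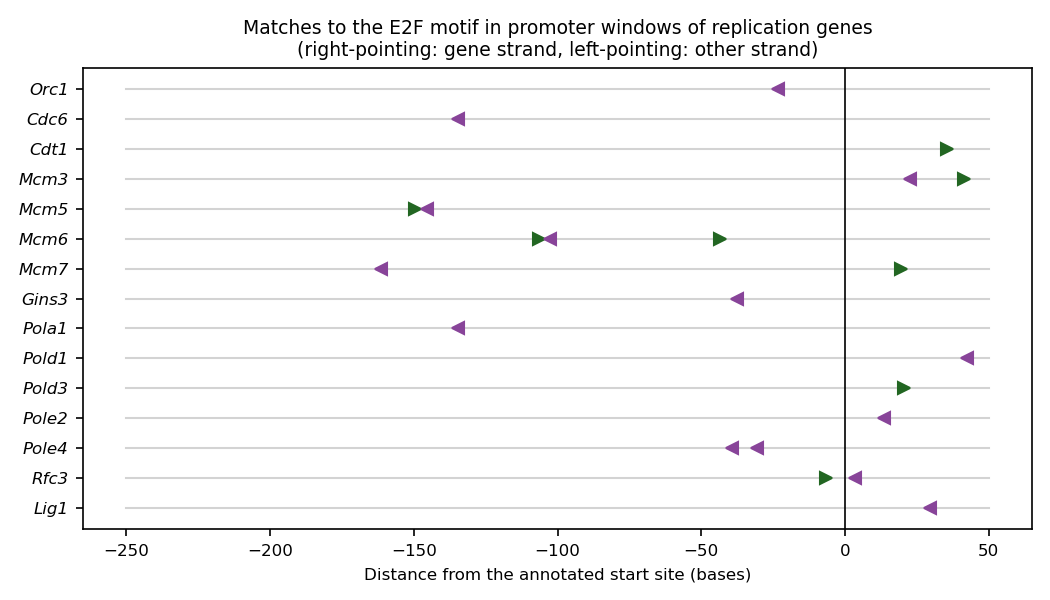
Positions of E2F motif matches in the promoter windows of the 15 replication genes that have one, as distance in bases from the annotated start site, where the start site is 0. Arrowheads give the strand of each match, and both marks of Pole4 are the same site seen from 2 annotated starts; Mcm5 and Mcm6 show overlapping matches on both strands.

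The machinery was present at very different levels per gene length. Mcm6 was the most abundant member, at 202 ± 4.58 FPKM in PTMA and 184 ± 4.71 FPKM in vector libraries (SD, n = 3 each), followed by Pcna, at 157 ± 9.52 FPKM in PTMA and 140.0 ± 13.7 FPKM in vector libraries (SD, n = 3 each). The lowest was Dna2, a nuclease and helicase that trims long flaps, at 2.04 ± 0.115 FPKM in PTMA and 1.86 ± 0.12 FPKM in vector libraries (SD, n = 3 each). In all, 11 members had a mean of 50 FPKM or more and 8 lay under 10 FPKM. The 11 were Mcm2 to Mcm7, Pcna, Fen1, Pold2, Rpa1 and Gins4. The 8 were Prim2, Mcm10, Pole2, Pola1, Pole, Rnaseh2b, Orc1 and Dna2, among them the catalytic subunits of polymerases alpha and epsilon. Neighbours in this order were often close: of 45 neighbouring pairs, 14 kept the same order in all 6 libraries.

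**Figure D2:**
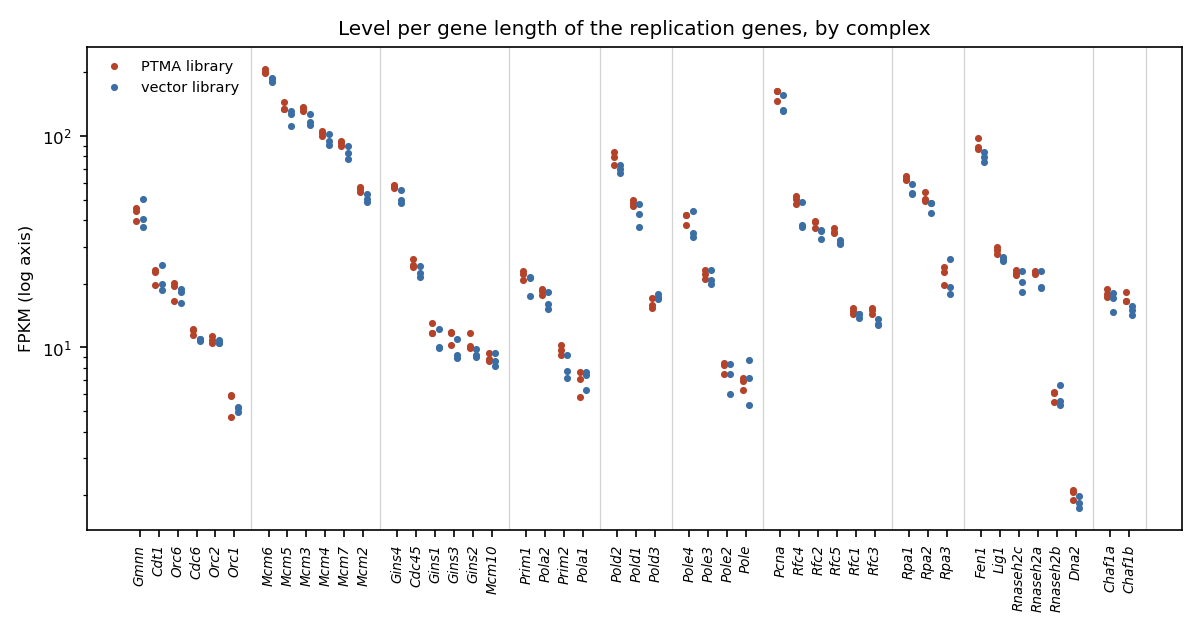
FPKM of each replication gene (log axis) in every library, PTMA libraries left and vector libraries right of each position, grouped by complex and ordered by level within it. Mcm6 and Pcna stand at the top and Dna2 at the bottom, and the groups lie close together for every gene beside the range between genes.

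Subunits of the same complex were not equally abundant per length. Among Mcm2 to Mcm7, which occur once each in the ring, Mcm6 made up 27.9 ± 0.32% of the summed FPKM in PTMA libraries and 28.2 ± 1.45% in vector libraries (SD, n = 3 each). Mcm2 made up 7.72 ± 0.32% in PTMA and 7.72 ± 0.07% in vector libraries (SD, n = 3 each). Within polymerase epsilon the small histone-fold subunit Pole4 held 52.4 ± 0.81% in PTMA and 51.0 ± 3.54% in vector libraries (SD, n = 3 each), while the catalytic subunit Pole held 8.75 ± 0.77% in PTMA and 9.87 ± 2.95% in vector libraries (SD, n = 3 each). In polymerase delta, Pold3 held 10.8%, 12.0% and 11.1% of the summed FPKM of Pold1 to Pold3 in PTMA 1 to 3, against 13.1%, 12.9% and 14.3% in vector 1 to 3. A further subunit, Pold4, was read among the companion genes and is not in that sum. It stood at 42.2 ± 2.23 FPKM in PTMA and 41.8 ± 1.01 FPKM in vector libraries (SD, n = 3 each). Those shares of Pold3 did not overlap between the groups, and the difference was not tested. How many shares of the other members did not overlap was not counted. The share of Pold3 rests on the same reads as its fold change below, so it is not a separate observation.

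Between the groups, nearly all members stood slightly higher in PTMA libraries, and none passed the test. Of the 46 members, 0 had an adjusted p under 0.05 in the edgeR quasi-likelihood test over all 16592 genes, where 0.0121% of all genes did. DESeq2 and limma on log2(FPKM + 1) also called 0 members. The adjusted p-values of the members ran from 0.951 to 0.996 in edgeR. Fold changes (PTMA over vector) ran from 0.929 for Pold3 to 1.22 for Rfc4, and the log2 fold change was above 0 for 43 of 46 members (93.5%), against 46.8% of all genes tested. The median log2 fold change was 0.14 over the members and -0.01 over all genes. At an unadjusted p under 0.05, 10 members were higher (21.7%), against 1.92% of all genes, and 0 were lower, against 2.72%. DESeq2 counted 13 members as higher, against 1.75% of all genes with a p there, and limma on log2(FPKM + 1) counted 10, against 2.62%. All 3 PTMA libraries lay above all 3 vector libraries for 16 members (34.8%), against 5.39% of all genes, and all below for 0 members, against 5.38%. All members share the same 6 libraries, so the counts are not 46 separate observations, and the members were more abundant and more precisely measured than the typical gene (median 21.6 against 3.095 FPKM, median SE 0.08 against 0.15).

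Summed over the 46 members, the level was 7961, 8047 and 7802 CPM in PTMA 1 to 3, against 7081, 7130.4 and 7409 CPM in vector 1 to 3, so the groups did not overlap, and the PTMA mean was 10.1% above the vector mean. Such a gap was not particular to the members, since the summed companion genes below were also apart. The members took 0.789%, 0.788% and 0.781% of all counts in PTMA 1 to 3, against 0.721%, 0.731% and 0.729% in vector 1 to 3. The 95% interval of every member lay within 1.5-fold in either direction, and it held 0 for 36 of the 46. The widest bounds were 1.48-fold for Rfc4 and 0.780-fold for Pole. The share of all genes that stood higher depended on level, so the members are also given by level. At 50 FPKM or more, 11 of 11 members had a log2 fold change above 0, against 77.8% of the 1117 genes tested at that level, and 9 had all PTMA libraries above all vector libraries, against 15.3%. Between 10 and 50 FPKM it was 26 of 27 members, against 64.6% of genes, and 7 without overlap, against 9.80%. Under 10 FPKM it was 6 of 8, against 38.3%, and 0 without overlap, against 3.09%. The median SE was 0.06 in the most abundant band and 0.12 in the least abundant one.

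**Figure D3:**
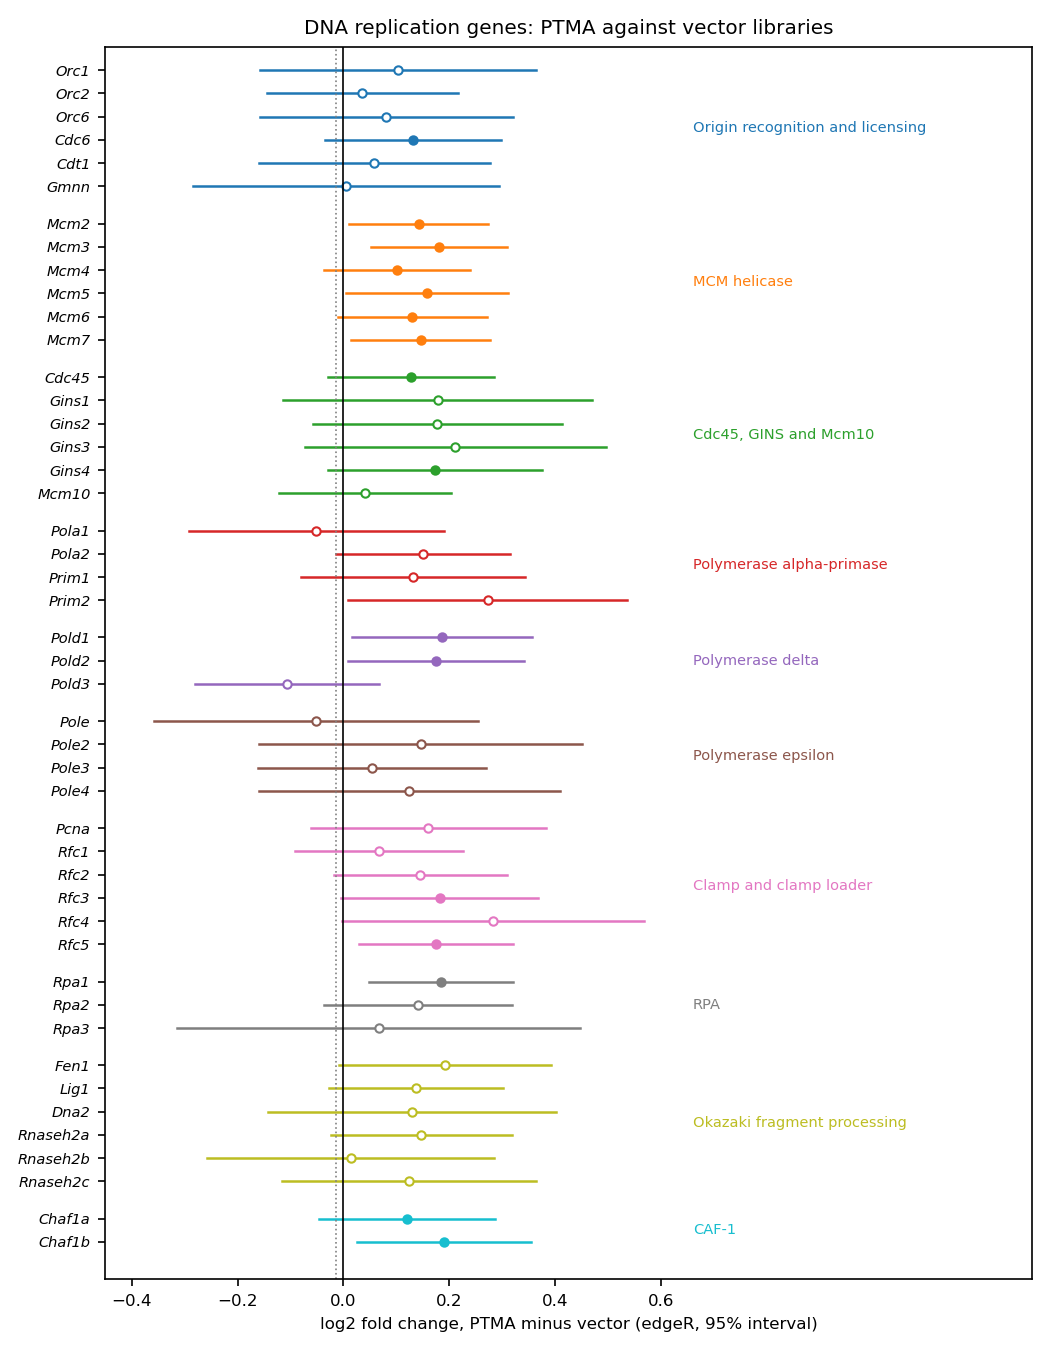
Log2 fold change of each replication gene, PTMA minus vector, with its 95% interval from edgeR, grouped by complex. Filled points mark genes whose PTMA libraries all lie above all vector libraries, the dotted line is the median of all genes tested at -0.01, and 43 of 46 points lie to the right of 0.

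Origin recognition and licensing had the lowest median log2 fold change of the 10 complexes, 0.070. Its 6 members summed to 329.8, 333 and 344 CPM in PTMA 1 to 3, against 306, 317 and 340.2 CPM in vector 1 to 3, and the groups overlapped. Cdc6 (an ATPase that helps load the helicase; ENSMUSG00000017499, chromosome 11, 98907801 to 98923940, plus strand) had 66.9, 71.1 and 70.5 CPM in PTMA 1 to 3, against 62.9, 61.1 and 66.3 CPM in vector 1 to 3. It was the only one of these 6 members whose groups did not overlap, with a log2 fold change of 0.13 (SE 0.074). Orc1, the ATPase subunit of the origin recognition complex, had 23.1, 18.5 and 22.7 CPM in PTMA 1 to 3, against 19.5, 19.5 and 20.9 CPM in vector 1 to 3. PTMA 2 was the lowest of the 6 libraries for Orc1, and its log2 fold change was 0.10 (SE 0.12). The other origin recognition subunits among the members, Orc2 and Orc6, had log2 fold changes of 0.036 (SE 0.080) and 0.081 (SE 0.11). Orc3, Orc4 and Orc5, read among the companion genes below, had 0.052 (SE 0.094), -0.041 (SE 0.13) and 0.16 (SE 0.082), and only the groups of Orc5 did not overlap. Cdt1, which brings the helicase to origins, had 0.058 (SE 0.10), and geminin (Gmnn), the inhibitor of Cdt1, had 0.0047 (SE 0.13). Gmnn was the most abundant of the 6 at 42.97 ± 3.05 FPKM in PTMA and 42.7 ± 6.81 FPKM in vector libraries (SD, n = 3 each), and Orc1 the least, at 5.54 ± 0.713 FPKM in PTMA and 5.14 ± 0.145 FPKM in vector libraries (SD, n = 3 each).

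In the MCM helicase, as in CAF-1, every subunit separated the groups. All 6 MCM subunits had PTMA libraries above all vector libraries, against 15.3% of genes at 50 FPKM or more. Mcm2, Mcm3, Mcm5 and Mcm7, 4 of the 6, had an unadjusted p under 0.05, against 6.62% of genes higher at that level. Summed, the ring stood at 3564, 3528 and 3452 CPM in PTMA 1 to 3, against 3169, 3189.7 and 3192 CPM in vector 1 to 3, and the PTMA mean was 10.4% higher. Mcm3 (ENSMUSG00000041859, chromosome 1, 20802968 to 20820312, minus strand) had 574, 555 and 556 CPM in PTMA 1 to 3, against 491, 508 and 488 CPM in vector 1 to 3. The vector libraries of Mcm3 lay within a narrow band, and the log2 fold change was 0.18 (SE 0.057), with a 95% interval of 0.052 to 0.31. Mcm7 had 458, 447 and 459 CPM in PTMA 1 to 3, against 411, 423 and 398 CPM in vector 1 to 3, with a log2 fold change of 0.15 (SE 0.058). For Mcm7 too, every PTMA library was above every vector library, though by a smaller gap. Mcm2 and Mcm5 had log2 fold changes of 0.14 (SE 0.058) and 0.16 (SE 0.067), and Mcm4 and Mcm6 of 0.10 (SE 0.061) and 0.13 (SE 0.062). Mcm6, the most abundant subunit, had 1074, 1055 and 1016 CPM in PTMA 1 to 3, against 940.2, 921 and 1014 CPM in vector 1 to 3, so that vector 3 reached almost to PTMA 3. The 6 log2 fold changes were close to each other, from 0.10 to 0.18, and the differences between subunits were not tested.

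The factors that turn the loaded ring into an active helicase stood higher by a similar size, with a median log2 fold change of 0.17. Cdc45, GINS and Mcm10 summed to 365, 368 and 358 CPM in PTMA 1 to 3, against 323, 318 and 352 CPM in vector 1 to 3, and the groups did not overlap. Gins4 (a GINS subunit; ENSMUSG00000031546, chromosome 8, 23226616 to 23237659, minus strand) had 87.9, 86.3 and 86.2 CPM in PTMA 1 to 3, against 75.8, 69.2 and 86.01 CPM in vector 1 to 3. Vector 3 came within a fraction of a CPM of the lowest PTMA library for Gins4, and the log2 fold change was 0.17 (SE 0.089). Cdc45 had 95.6, 94.5 and 101 CPM in PTMA 1 to 3, against 85.00, 90.8 and 90.6 CPM in vector 1 to 3, with a log2 fold change of 0.13 (SE 0.069) and groups that did not overlap. The other GINS subunits had log2 fold changes of 0.18 (SE 0.13) for Gins1, 0.18 (SE 0.10) for Gins2 and 0.21 (SE 0.13) for Gins3, and in each of them vector 3 lay within the PTMA range. Mcm10, which helps activate the helicase, had 0.041 (SE 0.072), and its groups overlapped. Gins4 was the most abundant of this set at 57.9 ± 0.857 FPKM in PTMA and 51.2 ± 3.67 FPKM in vector libraries (SD, n = 3 each), and Mcm10 the least, at 8.98 ± 0.414 FPKM in PTMA and 8.74 ± 0.596 FPKM in vector libraries (SD, n = 3 each).

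**Figure D4:**
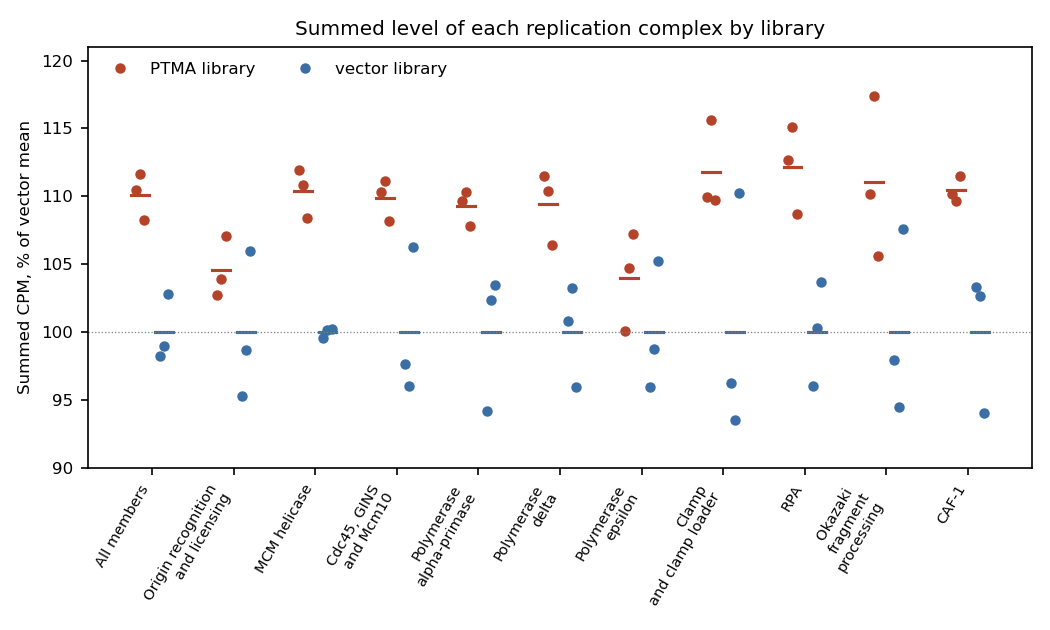
Summed TMM-scaled CPM of all 46 members and of each complex in every library, as percent of the vector mean of that complex, PTMA left of vector, with a bar at each group mean. The groups are apart for all members together and for 6 complexes, while for licensing, polymerase epsilon, clamp and loader, and Okazaki processing vector 3 lies within the PTMA range.

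In polymerase alpha-primase, which makes the RNA-DNA primers, the primase subunits and the B subunit had log2 fold changes above 0 and the catalytic subunit did not. The 4 genes summed to 397, 399 and 390.0 CPM in PTMA 1 to 3, against 341, 370.4 and 374 CPM in vector 1 to 3, with no overlap. Prim2, the large primase subunit (ENSMUSG00000026134, chromosome 1, 33453810 to 33669795, minus strand), had 64.1, 68.6 and 60.01 CPM in PTMA 1 to 3, against 48.01, 48.6 and 62.9 CPM in vector 1 to 3. Its log2 fold change of 0.27 (SE 0.12) was the second largest of the members, and vector 3 lay within the PTMA range. Without vector 3 that value was 0.41. Pola2, the B subunit, had 174, 173 and 161 CPM in PTMA 1 to 3, against 142, 162 and 153 CPM in vector 1 to 3. Its lowest PTMA library lay just under its highest vector library, and the log2 fold change was 0.15 (SE 0.073). Prim1, the catalytic primase subunit, had 0.13 (SE 0.093) and was the most abundant of the 4, at 22.01 ± 1.15 FPKM in PTMA and 20.1 ± 2.17 FPKM in vector libraries (SD, n = 3 each). Pola1, the catalytic polymerase subunit, had a log2 fold change of -0.051 (SE 0.11), with 69.7, 58.00 and 74.1 CPM in PTMA 1 to 3, against 73.7, 71.7 and 63.7 CPM in vector 1 to 3. PTMA 2 was its lowest library and PTMA 3 its highest.

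The subunits of polymerase delta did not share a direction. Its members Pold1 to Pold3 summed to 519.5, 514 and 496 CPM in PTMA 1 to 3, against 469.7, 481 and 447 CPM in vector 1 to 3, with no overlap. Its catalytic subunit Pold1 (ENSMUSG00000038644, chromosome 7, 44532746 to 44548847, minus strand) had 261, 255 and 266 CPM in PTMA 1 to 3, against 233, 247 and 208 CPM in vector 1 to 3. The groups of Pold1 did not overlap, vector 3 was lowest, and the log2 fold change was 0.19 (SE 0.075). Pold2, the B subunit, had 177, 169.9 and 152 CPM in PTMA 1 to 3, against 149, 147 and 146 CPM in vector 1 to 3, with a log2 fold change of 0.17 (SE 0.073) and groups that did not overlap. Pold3, an accessory subunit that binds PCNA, had 81.5, 89.02 and 77.8 CPM in PTMA 1 to 3, against 87.6, 87.4 and 92.3 CPM in vector 1 to 3. Here PTMA 1 and PTMA 3 lay under every vector library, and the log2 fold change of -0.11 (SE 0.077), with an interval of -0.28 to 0.067, was the lowest of all 46 members. Pold2 was the most abundant subunit at 78.8 ± 5.51 FPKM in PTMA and 69.8 ± 2.84 FPKM in vector libraries (SD, n = 3 each), and Pold3 the least, at 16.2 ± 0.942 FPKM in PTMA and 17.4 ± 0.471 FPKM in vector libraries (SD, n = 3 each).

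In polymerase epsilon the groups were not apart. The sum was 265, 277 and 283 CPM in PTMA 1 to 3, against 254, 261 and 278 CPM in vector 1 to 3, and the groups overlapped for each of the 4 genes. Pole2, the B subunit (ENSMUSG00000020974, chromosome 12, 69201773 to 69228179, minus strand), had 23.97, 27.3 and 26.3 CPM in PTMA 1 to 3, against 19.5, 23.04 and 27.7 CPM in vector 1 to 3, with a log2 fold change of 0.15 (SE 0.13). Pole4 had 106, 119 and 117 CPM in PTMA 1 to 3, against 97.8, 89.2 and 127 CPM in vector 1 to 3, so the highest library of all was vector 3, and the log2 fold change was 0.12 (SE 0.13). The other histone-fold subunit, Pole3, had 0.053 (SE 0.095) and its highest value in vector 3. The catalytic subunit Pole had 86.5, 79.04 and 87.97 CPM in PTMA 1 to 3, against 90.5, 104 and 68.8 CPM in vector 1 to 3. The vector libraries of Pole spread further apart than the PTMA libraries and enclosed them, and its log2 fold change was -0.052 (SE 0.14). Pole4 was the most abundant subunit at 40.9 ± 2.49 FPKM in PTMA and 37.4 ± 5.77 FPKM in vector libraries (SD, n = 3 each), and Pole the least, at 6.81 ± 0.454 FPKM in PTMA and 7.09 ± 1.69 FPKM in vector libraries (SD, n = 3 each).

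The clamp Pcna, the ring that holds polymerases on DNA, and its loader RFC stood higher in all PTMA libraries than in vector 1 and vector 2, when summed, while vector 3 lay within the PTMA range. Together they summed to 1099.8, 1157 and 1098 CPM in PTMA 1 to 3, against 963, 935 and 1103 CPM in vector 1 to 3. Rfc5 (ENSMUSG00000029363, chromosome 5, 117378103 to 117389047, minus strand) had 179.5, 193 and 181 CPM in PTMA 1 to 3, against 163, 160.4 and 168 CPM in vector 1 to 3, with a log2 fold change of 0.17 (SE 0.064) and no overlap. Rfc4 had 88.9, 87.2 and 80.6 CPM in PTMA 1 to 3, against 65.05, 60.3 and 85.6 CPM in vector 1 to 3. It had the largest log2 fold change of the members at 0.28 (SE 0.13), and yet vector 3 lay within the PTMA range. Without vector 3 that value was 0.45, and without vector 2 it was 0.19, below the 0.25 of Pold1. Rfc3, another small loader subunit, had 0.18 (SE 0.082), also with no overlap. Rfc2 had 0.15 (SE 0.072), and the large subunit Rfc1 0.067 (SE 0.070). Pcna had 389.7, 438 and 429 CPM in PTMA 1 to 3, against 359, 335 and 431 CPM in vector 1 to 3, with vector 3 at the level of PTMA 3 and a log2 fold change of 0.16 (SE 0.10). Rfc3 was the least abundant of the 6, at 14.9 ± 0.468 FPKM in PTMA and 13.1 ± 0.429 FPKM in vector libraries (SD, n = 3 each).

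RPA, the complex that coats unwound DNA, summed to 592, 606 and 572 CPM in PTMA 1 to 3, against 505, 527 and 546 CPM in vector 1 to 3, with no overlap and a PTMA mean 12.2% higher. Its DNA-binding large subunit Rpa1 (ENSMUSG00000000751, chromosome 11, 75298166 to 75348324, minus strand) had 403, 391 and 378 CPM in PTMA 1 to 3, against 335, 353 and 344 CPM in vector 1 to 3. The groups of Rpa1 were apart, and the log2 fold change was 0.18 (SE 0.060), with an interval of 0.048 to 0.32. Rpa2, the middle subunit, had 165, 184 and 165 CPM in PTMA 1 to 3, against 146, 153 and 167 CPM in vector 1 to 3, where vector 3 exceeded PTMA 1 and PTMA 3, and a log2 fold change of 0.14 (SE 0.078). Rpa3, the smallest, had 0.066 (SE 0.17) and its highest value, 34.3 CPM, in vector 3. Rpa1 was the most abundant at 62.99 ± 1.71 FPKM in PTMA and 55.5 ± 3.52 FPKM in vector libraries (SD, n = 3 each), and Rpa3 the least, at 22.2 ± 2.15 FPKM in PTMA and 21.1 ± 4.45 FPKM in vector libraries (SD, n = 3 each).

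Okazaki fragment processing joins the pieces of the lagging strand. All 6 genes had log2 fold changes above 0 and all 6 had overlapping groups. Their sum was 563, 600.2 and 540.1 CPM in PTMA 1 to 3, against 501, 483 and 550.4 CPM in vector 1 to 3. Fen1, the flap endonuclease (ENSMUSG00000024742, chromosome 19, 10199132 to 10204169, minus strand), had 237, 267 and 231 CPM in PTMA 1 to 3, against 215, 194 and 234 CPM in vector 1 to 3. Vector 3 lay between PTMA 3 and PTMA 1 for Fen1, and the log2 fold change was 0.19 (SE 0.088). Rnaseh2a, the catalytic subunit of RNase H2, which removes RNA primers, had 90.1, 89.4 and 85.6 CPM in PTMA 1 to 3, against 76.00, 85.9 and 77.6 CPM in vector 1 to 3. Its highest vector library was just above its lowest PTMA library, and the log2 fold change was 0.15 (SE 0.076). The DNA ligase Lig1 had 0.14 (SE 0.073), Dna2 0.13 (SE 0.12), and the accessory subunits Rnaseh2c 0.12 (SE 0.11) and Rnaseh2b 0.014 (SE 0.12). Fen1 was the most abundant, at 90.98 ± 6.21 FPKM in PTMA and 79.5 ± 4.26 FPKM in vector libraries (SD, n = 3 each).

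CAF-1 places new nucleosomes on replicated DNA and binds PCNA. Its 2 subunits among the members summed to 266, 265 and 269 CPM in PTMA 1 to 3, against 249, 248 and 227 CPM in vector 1 to 3, with no overlap. Chaf1b (ENSMUSG00000022945, chromosome 16, 93883901 to 93906115, plus strand) had 95.02, 87.3 and 84.99 CPM in PTMA 1 to 3, against 79.2, 78.2 and 76.9 CPM in vector 1 to 3, with a log2 fold change of 0.19 (SE 0.073). All vector values of Chaf1b lay within 3 CPM of each other and under every PTMA value. Chaf1a, the large subunit, had 171, 177 and 184 CPM in PTMA 1 to 3, against 170.2, 169.7 and 150.2 CPM in vector 1 to 3. PTMA 1 was less than 1 CPM above vector 1 for Chaf1a, and the log2 fold change was 0.12 (SE 0.074). Per length the subunits were close, with Chaf1a at 18.04 ± 0.803 FPKM in PTMA and 16.6 ± 1.71 FPKM in vector libraries (SD, n = 3 each) and Chaf1b at 17.1 ± 0.978 FPKM in PTMA and 14.99 ± 0.728 FPKM in vector libraries (SD, n = 3 each).

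Vector 3 stood apart from the other vector libraries. The chi-square per gene was 53.3 between vector 1 and vector 3 and 84.8 between vector 2 and vector 3, against 17.7 between vector 1 and vector 2. Vector 3 was the highest vector library for 29 of the 46 members and lay above the lowest PTMA library for 25. The same shares over all genes were not counted, so these counts have no background and are not a result about the members. Gmnn had 64.5, 72.4 and 73.2 CPM in PTMA 1 to 3, against 61.1, 63.3 and 84.9 CPM in vector 1 to 3, so vector 3 was the highest of all libraries. Vector 3 was the lowest of all libraries for 11 members, among them Pold1, Chaf1a and Pole. That was fewer than the 13 members of vector 1 and the 19 of vector 2. The deviation of vector 3 from the mean of the other vector libraries went with the length of the gene model, read from the ratio of count to FPKM: shorter members stood higher in vector 3 (Spearman's rho = -0.57 across the 46 members, and -0.26 across 16592 genes, which share the library and are not replicates). The part of this in the comparison was not tested. Without vector 3, 26 members had an unadjusted p under 0.05 in the higher direction, against 7.68% of all genes, and 1 in the lower direction, against 7.75%, and the median log2 fold change of the members was 0.17. Without vector 1 it was 1 member, against 1.07% of all genes, with a median of 0.11. Without PTMA 1 it was 3 members, and without PTMA 2 also 3, against 1.17% and 0.902% of all genes. No member passed the adjusted threshold in any of these fits, where the smallest adjusted p was 0.177, for Rfc4 without vector 3 (edgeR).

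**Figure D5:**
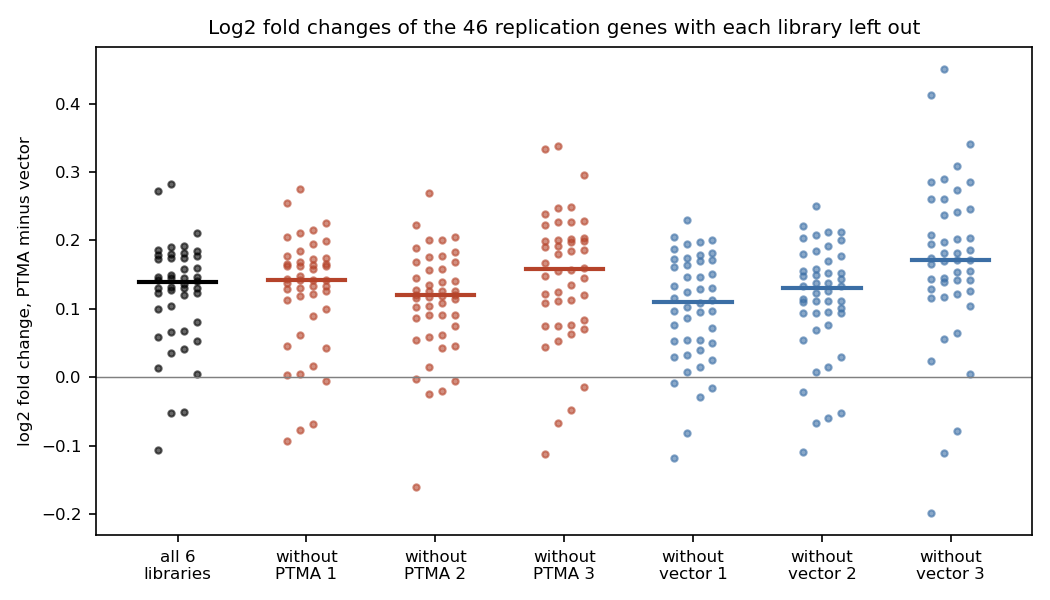
Log2 fold changes of the 46 replication genes, PTMA minus vector, with all 6 libraries and with each library left out, where each point is a gene and each bar the median. The median stays above 0 in every fit, between 0.11 without vector 1 and 0.17 without vector 3.

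Genes around the machinery were read from 6 further lists, none of whose genes is a member. Of 65 companion genes, 0 passed the adjusted test in either direction (edgeR). At an unadjusted p under 0.05, 7 were higher, against 1.92% of all genes, and 1 was lower, against 2.72%. Log2 fold changes were above 0 for 45, against 46.8% of all genes and 64.6% of those between 10 and 50 FPKM. The companions had a median level of 12.1 FPKM and a median log2 fold change of 0.05. Summed, they stood at 8037, 8042 and 8044 CPM in PTMA 1 to 3, against 7499.8, 7455 and 7814 CPM in vector 1 to 3. The groups of that sum did not overlap, and the PTMA mean was 5.95% higher. By list, the sums for mitosis, fork protection, chromatin and E2F did not overlap, while those for origin firing and the checkpoint did. The mitosis sum had a PTMA mean 10.4% higher. Of 11 genes for origin firing and other licensing, 6 were above 0, and the smallest p was that of the origin recognition subunit Orc5, at 0.16 (SE 0.082). The fork protection and alternative loader genes had 9 of 11 above 0, led by Chtf18, a subunit of an alternative clamp loader, at 0.22 (SE 0.11). Chromatin and topology genes had 7 of 10 above 0, led by Ssrp1, a subunit of the FACT histone chaperone, at 0.15 (SE 0.064). The replication checkpoint had 5 of 9 above 0 with a median of 0.00, and its smallest p belonged to Wee1, a kinase that restrains entry into mitosis, at 0.19 (SE 0.088). Of the E2F and G1/S genes 9 of 12 were above 0, and the smallest p belonged to one below 0: the retinoblastoma gene Rb1, a repressor of E2F, had 32.5, 29.5 and 33.3 CPM in PTMA 1 to 3, against 43.01, 36.7 and 34.2 CPM in vector 1 to 3. All PTMA libraries of Rb1 lay under all vector libraries, at a log2 fold change of -0.26 (SE 0.11). The activator E2f1 stood at 0.14 (SE 0.086). Mitosis genes had the highest median of the 6 lists, 0.13, with 9 of 12 above 0 and 6 higher at an unadjusted p under 0.05. Of all genes, 1.92% were higher at that p, and 6.62% of those at 50 FPKM or more. The mitotic kinase Plk1 had the smallest p, at 0.23 (SE 0.062). No difference between these lists was tested.

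Markers of other cell types stood at low levels beside the T cell markers. Summed by list, the groups were apart for oocyte, myeloid and dendritic, and B cell markers. They overlapped for keratinocyte, NK cell and erythroid markers. Of 10 oocyte markers 9 could be tested and all 9 were below 0, with a summed level of 1.94, 2.88 and 4.34 CPM in PTMA 1 to 3, against 35.01, 25.5 and 28.95 CPM in vector 1 to 3. One of them, Gdf9, a growth factor of the oocyte, fell in PTMA libraries (log2 fold change -3.90, adjusted p = 0.0397, edgeR). Leaving out PTMA 3, vector 1 or vector 3 ended that call, at edgeR adjusted p-values of 0.153, 0.194 and 0.0715 in that order. Zp2 and Ooep had 0 counts in all PTMA libraries, which allows up to 0.0458 CPM in a library. Of the myeloid and dendritic markers, 5 of 6 tested were above 0, and the list summed to 30.1, 37.9 and 29.8 CPM in PTMA 1 to 3, against 22.3, 22.97 and 23.6 CPM in vector 1 to 3. In this list the chemokine Ccl22 had 5.99, 8.42 and 5.86 CPM in PTMA 1 to 3, against 2.09, 0.852 and 0.709 CPM in vector 1 to 3, and the actin-bundling gene Fscn1 had 1.51, 1.82 and 1.81 CPM in PTMA 1 to 3, against 0.339, 0.325 and 0.0806 CPM in vector 1 to 3. All PTMA libraries lay above all vector libraries for both, at log2 fold changes of 2.48 (SE 0.39) and 2.78 (SE 0.50), and neither passed the test (adjusted p = 0.199 and 0.318, edgeR). Cd68 and Xcr1, which made up most of the summed level, had 0.24 (SE 0.14) and 0.12 (SE 0.18), with overlapping groups. Itgax was below 0, at -0.30 (SE 0.23), and Flt3 stood at 2.62 (SE 1.23) on few counts, also with overlapping groups. The median of the 6, 1.36, lay between the values of Cd68 and Ccl22 and was near that of no gene. The myeloid markers Itgam and Csf1r were at or near 0 in every library and were not tested. Itgam had 15, 0 and 5 counts in PTMA 1 to 3 and 0 in every vector library. The B cell markers Cd79a, Cd79b and Ms4a1 summed to 5.899, 6.66 and 5.37 CPM in PTMA 1 to 3, against 4.95, 3.86 and 4.08 CPM in vector 1 to 3, where Cd79b made up most of the level. The markers did not share a direction: the log2 fold change was 0.60 (SE 0.17) for Cd79b, with all PTMA libraries above, -1.53 (SE 0.62) for Ms4a1, with all PTMA libraries below, and 0.025 (SE 0.67) for Cd79a, and none passed the test. Keratinocyte markers were highest in PTMA 1, vector 2 and vector 3, at 10.7, 2.59 and 1.37 CPM in PTMA 1 to 3, against 1.86, 18.9 and 27.1 CPM in vector 1 to 3. NK cell markers summed to 11.9, 9.901 and 9.65 CPM in PTMA 1 to 3, against 10.9, 9.52 and 10.3 CPM in vector 1 to 3, nearly all of it Klrb1c, and erythroid genes stayed under 1 CPM. The T cell markers summed to 6680.2, 6703 and 6235 CPM in PTMA 1 to 3, against 6209.9, 6169.9 and 6588 CPM in vector 1 to 3, and the groups overlapped. The part of other cells in the levels of the replication genes was not tested.

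The counting method's use of strand is not given in the sources used here. In GENCODE M21, 16 of the 46 members overlap another protein-coding gene, 14 of them one on the opposite strand, such as Mcm7 with Cops6 and Ap4m1, Rfc4 with Eif4a2, Rfc5 with Wsb2, Fen1 with Tmem258 and Rnaseh2a with Prdx2. Pcna has processed pseudogenes in that annotation. Values of these members are therefore uncertain by whatever reads were shared.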

How the data were processed

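The authors deposited a single table with raw counts per gene and library and, beside them, FPKM, which divides by the length of the gene and the size of the library, per the file headers. Tools listed in the submitters' processing notes are Bowtie 0.12.2, HISAT2 2.0 and StringTie 1.3.0, and the listed build is mm8. The counting program is not given in the sources used here. Gene coordinates are printed as the table lists them. They are those of GRCm38, since all 46 members share a start or end with GENCODE M21. Groups and replicate numbers come from the sample titles.

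Counts of all 6 libraries were fitted with edgeR 4.0.16 (R 4.3.3): TMM scaling, filterByExpr with a minimum count of 10, and a quasi-likelihood test of the group term, with no other term. P-values were adjusted by Benjamini-Hochberg over 16592 genes at a threshold of 0.05. Log2 fold changes are PTMA minus vector, SE is the size of the log2 fold change divided by the square root of F, and 95% intervals use the fit's degrees of freedom. The floor for a count of 0 is 3 counts and covers counting error only. The scripts were tested on simulated data. Chi-square per gene between libraries of a group ran from 17.7 to 84.8, far above sampling noise, so no libraries were treated as duplicates. Alternatives used DESeq2 1.42.0, limma 3.58.1 on log2(FPKM + 1) and log2(FPKM + 0.1) for genes averaging 1 FPKM or more, other scalings, no filter, a replicate block and each library left out. The members, lists and rules were chosen with earlier results of these data known. Per complex, the 2 genes with the smallest p are given by library, all others by fold change, and each companion list by its gene with the smallest p. Of the markers, Pax5, Lyz2 and Hbb-bt were not analysed here, and some others are not reported here. Some genes named in the text outside this rule were chosen after their values were seen.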

Additional observations from a re-analysis of the deposited data

How the results depend on the processing

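No member of the replication machinery passed the threshold in edgeR or in any of the 13 alternatives, and the median log2 fold change of the members lay between 0.11 and 0.17 in all of them. The causes of the shifts below were not tested. All genes called numbered 2 in the edgeR fit, 0 with no filter on low counts, where 27480 genes were tested, 47 with DESeq2, 1 with limma on log2(FPKM + 1), 1 with limma on log2(FPKM + 0.1), 0 with the replicate block and 0 to 4 with a library left out. Members higher at an unadjusted p under 0.05 numbered 10 in that fit, 4 with libraries scaled to the same total (1.19% of all genes) and 1 to 26 with a library left out, the lowest without vector 1 (1.07% of all genes) and the highest without vector 3 (7.68%). With libraries scaled to the same total, 41 members were above 0 and the median of all genes was -0.04. Gdf9 was called in 8 of the 13 alternatives, with an adjusted p of 0.443 with no filter and 0.342 with the replicate block (edgeR). The log2 ratio of the summed MCM helicase was 0.14, 0.12 with libraries scaled to the same total and 0.13 to 0.17 with a library left out. Of the 46 members, 40 were above 0 in every alternative and Pold3 was below 0 in every one. The other 5 changed sign, none of them called. The share of all genes that kept their sign was not counted, and all alternatives draw on the same 6 libraries. On same-total scaling Gmnn was at -0.019 and Rnaseh2b at -0.012. With a library left out Gmnn ran from -0.082 to 0.17, Rnaseh2b from -0.067 to 0.14, Rpa3 from -0.060 to 0.28, Pola1 from -0.11 to 0.045 (above 0 without PTMA 2) and Pole from -0.20 to 0.095 (above 0 without vector 2).

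The labels do not say that the replicate numbers pair the samples, so the main fit had no replicate term. Deviations of same-numbered libraries from their group means had correlations of -0.12, -0.16 and -0.12 over all genes tested. Differently numbered libraries were not compared in this way, so these values cannot decide whether the numbers pair. With the replicate block, 2 members were higher at an unadjusted p under 0.05 (against 0.952% of all genes), 0 passed the threshold and the median was 0.14. Every member had at least 649 counts in every library, so the precision rests mainly on the 3 libraries per group.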
